A study of Mus musculus with 18 samples.

Results

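Chromatin of KAP1 knockout (KO) mouse embryonic stem (ES) cells, precipitated with an antibody against KAP1, gave 1898 called peaks. All of them were taken as members and split by whether 1 bp or more overlapped a peak called in wild-type (WT) cells: 77 peaks were shared with WT and 1821 were not, here called shared and KO-only peaks. They are set beside the 3023 WT peaks that overlap no KO peak, out of 3099 WT peaks. Across the 3 deposited lists (KO over total input, WT over total input, and WT over KO) there were 7379 KAP1 peaks. The background of each list is known from its deposited name alone, and no source used here says which input library served.

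The KO cells were C57BL/6 ES3 embryonic stem cells, sampled 4 days after Cre recombinase was switched on with 4-OHT (4-hydroxytamoxifen). The WT cells were ES3 cells of the same strain kept in culture for 4 days. Both grew on gelatin in serum with leukaemia inhibitory factor. KAP1 was precipitated with a rabbit polyclonal antibody made in the Trono laboratory, and H3K9me3 with Abcam ab8898. The series holds 18 samples, and each group used here is 1 library. RNA came from pooled duplicate cultures, so no spread between replicates can be given. Mouse embryonic fibroblasts (MEFs) of the same strain, 5 days after Cre induction for the KO, are used for RNA alone.

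KAP1, encoded by Trim28, is a corepressor with no sequence-specific DNA binding of its own. KRAB zinc finger proteins bind the DNA and bring KAP1 to it, and KAP1 in turn brings the methyltransferase SETDB1, which writes H3K9me3, a mark of silent chromatin. In ES cells this system is known for silencing endogenous retroviruses and, through ZFP57, for holding the marks of imprinted genes. Chromatin from cells without the antigen is commonly used to see what an antibody and the sequencing return when the protein is missing.

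The targeted gene was low but measurable in the KO RNA: Trim28 stood at 37.2 RPKM (reads scaled to transcript length and library size) in ES3 KO cells and at 1050.7 RPKM in ES3 WT cells, a log2 ratio of -4.78. The 7 ES cell markers ranged over 18.7–493.5 RPKM in KO and 40.7–820.2 RPKM in WT, and none was at 0. Each of the 7 was lower in KO, and they summed to 1038.2 RPKM in KO and 2026.0 RPKM in WT. The 6 primitive endoderm markers summed to 408.2 RPKM in KO and 22.2 RPKM in WT, and the 6 fibroblast markers to 16.8 RPKM in KO and 2.2 RPKM in WT. Most of these KO sums came from 1 gene each, Lama1 at 301.6 RPKM and Col1a1 at 9.93 RPKM. Postn was at 0.035 RPKM in KO and at 0 in WT. The part of these differences in the peaks was not tested.

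Promoters of 4 genes whose mm9 start lies inside a KO peak are shown as examples of the sequence around such starts; a window can run past the edge of the peak. They are printed 5′ to 3′ from RefSeq, assembly GRCm38.p6, from 250 bases before to 50 after the start RefSeq gives, with CpG dinucleotides in capitals. Nnat, at chr2:157559828-157560127 (plus strand), is an imprinted gene with its start in a shared peak. Zrsr1, at chr11:22971755-22972054 (plus strand), is an imprinted gene with its start in a KO-only peak. Dusp1, at chr17:26508423-26508722 (minus strand), and Ap2m1, at chr16:20535230-20535529 (plus strand), have their starts in KO-only peaks.
Nnat: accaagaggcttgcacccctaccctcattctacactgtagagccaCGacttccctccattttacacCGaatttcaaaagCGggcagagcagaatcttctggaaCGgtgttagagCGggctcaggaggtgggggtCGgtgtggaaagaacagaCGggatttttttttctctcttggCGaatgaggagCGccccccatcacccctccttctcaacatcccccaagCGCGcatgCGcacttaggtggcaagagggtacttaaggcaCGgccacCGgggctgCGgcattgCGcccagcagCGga
Zrsr1: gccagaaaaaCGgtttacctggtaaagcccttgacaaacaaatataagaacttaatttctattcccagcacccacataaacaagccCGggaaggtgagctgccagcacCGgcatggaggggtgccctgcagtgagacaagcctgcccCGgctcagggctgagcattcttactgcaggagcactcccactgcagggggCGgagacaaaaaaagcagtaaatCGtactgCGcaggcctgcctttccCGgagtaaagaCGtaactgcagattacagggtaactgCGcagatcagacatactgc
Dusp1: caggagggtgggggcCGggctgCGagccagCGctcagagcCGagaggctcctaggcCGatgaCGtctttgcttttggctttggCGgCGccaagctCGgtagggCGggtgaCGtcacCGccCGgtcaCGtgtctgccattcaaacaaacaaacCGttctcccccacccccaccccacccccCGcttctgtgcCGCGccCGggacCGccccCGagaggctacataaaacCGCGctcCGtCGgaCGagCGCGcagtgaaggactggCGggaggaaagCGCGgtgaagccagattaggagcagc
Ap2m1: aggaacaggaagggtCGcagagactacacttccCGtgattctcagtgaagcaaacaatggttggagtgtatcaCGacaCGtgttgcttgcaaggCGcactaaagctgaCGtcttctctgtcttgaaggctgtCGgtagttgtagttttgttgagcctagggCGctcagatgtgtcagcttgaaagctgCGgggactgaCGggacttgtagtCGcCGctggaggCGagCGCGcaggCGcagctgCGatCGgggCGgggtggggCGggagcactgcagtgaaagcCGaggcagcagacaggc

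Dusp1, a phosphatase that acts on MAP kinases, had 31 CpGs in its window and a GC share of 67.0%. Ap2m1, a subunit of the clathrin adaptor, had 21 CpGs, Nnat 17 and Zrsr1 10. The letters TGCCGC, the core of the motif known for ZFP57, were searched on both strands and occur in the Nnat and Dusp1 windows, but not in the windows of Zrsr1 or Ap2m1. They occur in 11.6% of all 32851 promoters of the table and in 16.5% of those of genes in the ES table. A comparison of GC, CpG or motifs over the whole set is void, because 50 of the 73 genes with a start at a KO peak matched a promoter, under 80%. Sequences of the peaks themselves were not used here.

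Few KO peaks lay where WT peaks lay, and those few included the strongest. The 77 shared peaks were 4.06% of all KO peaks (Wilson 95% interval 3.26–5.04%), and 76 of the 3099 WT peaks (2.45%) met a KO peak; WT peaks cover 0.0738% of the chromosomes. Intervals here cover counting error over peaks only, treat neighbouring peaks as separate, and say nothing of how another library would differ. The overlap was usually near complete, with a median of 99.3% of the KO peak and a smallest overlap of 102 bp. The KO-only peak nearest to a WT peak was 258 bp away and the next 337 bp; 15 were within 1 kb, 75 within 10 kb, and the median gap was 215252 bp.

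The authors' score per peak, whose scale is not stated, is read within 1 list at a time. KO-only peaks had a median score of 62.3 (quartiles 58.2 and 68.7, range 50.04–202.2), and shared peaks a median of 88.2 (quartiles 63.6 and 247.2, range 50.45–3100). The lowest score was 50.04 in the KO list and 50.01 in the WT list, so most KO-only peaks scored near the bottom of their list. KO-only means that no WT peak was called there, not that WT signal was absent. The 22 highest-scoring peaks were all shared, and the first KO-only peak ranked 23. Of the 108 KO peaks with a score of 100 or more, 32 were shared (29.6%) and 76 were KO-only. KO-only peaks had a median width of 532 bp (206–11415 bp), shared peaks 660 bp (215–11852 bp), and WT peaks without KO overlap 558 bp. Shared peaks made up 8.53% of the bases under KO peaks.

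**Figure D1:**
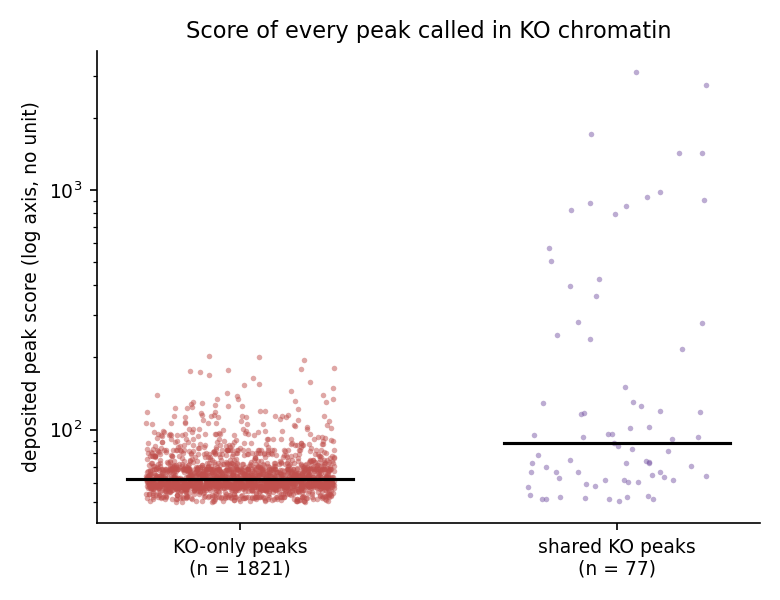
Deposited score of every peak in the KO list (log axis, no unit), with 1 point per peak and a bar at the median, for 1821 KO-only and 77 shared peaks. The KO-only peaks end at 202.2, while shared peaks reach 3100.

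Part of the high scores came from 2 loci with several peaks. Shared peaks within 50 kb of each other formed 65 loci, of which 4 held more than 1 peak and together 16 peaks. The locus on chromosome 2 held 4 peaks with scores of 879.2–3100 and that on chromosome 9 held 7 with 571.2–1423.9, while those on chromosomes 16 and 17 scored 51.3–53.4 and 51.6–118.5. The 16 peaks had a median score of 869.4 and a median width of 1369 bp, and the 61 others a median score of 78.4 and a median width of 578 bp. The 2 highest peaks, chr2:98506234-98507653 with a score of 3100 and chr2:98502227-98503435 with 2734, stand among 4 peaks over 1000 kb from the nearest gene start, that of Lrrc4c. The 7 peaks on chromosome 9 lie near its first mapped bases. They include chr9:3011166-3014584 with a score of 1423.9, chr9:3003809-3007703 with 1420.3, and chr9:3021929-3033780, which is 11852 bp wide and scored 910.1. Both stretches are familiar in mouse ChIP data generally as places where reads of repeated sequence pile up; no exclusion list was used here. All coordinates of peaks are mm9.

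Other high shared peaks stood alone. The third highest, chr9:35112513-35113341 with a score of 1706.3, lay 37.1 kb from the start of Rpusd4, a pseudouridine synthase gene. The peak chr17:39979449-39985900, 6452 bp wide with a score of 425.4, held the start of NR_030494, a microRNA transcript. Whether reads of repeated sequence pile up there was not tested. The 10 highest shared peaks all overlapped H3K9me3 in both KO and WT, and none was in the list of peaks called in WT over KO.

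The highest KO-only peaks were scattered, and none of the 10 highest reached within 1 kb of a gene start. The top one, chr16:3851346-3851860 with a score of 202.2, lay 4.12 kb from Zfp174, a zinc finger gene. It was followed by chr5:123532063-123532270 (score 200.9), 13.6 kb from Tmem120b, and by chr11:77754590-77755277 (score 196.0), 10.3 kb from Sez6, a gene of neurons. Next came chr19:25587962-25588399 (score 181.7), 7.85 kb from Dmrt1, a regulator of testis development, and chr6:100270547-100271005 (score 178.7), 33.1 kb from Rybp, a Polycomb subunit. The rest of the top 10 lay nearest to Slc38a9, Wfdc10, Camk2b, Wdr11 and Tuba3b, at 7.82 to 177.9 kb. Among KO-only peaks, 69 had another within 10 kb and 8 within 1 kb, with a median gap of 336178 bp to the nearest other.

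The list called in WT with the KO library as background met almost none of the KO peaks. Of the 1821 KO-only peaks 0 were in it, and of the 77 shared peaks 3 were (3.90%, 1.33–10.8%), against 1799 of the 3023 WT peaks without KO overlap (59.5%) and 58.1% of all WT peaks. Since this list has the KO signal as its background, few KO peaks can enter it. None of its 20 highest peaks overlapped a KO peak, which that background makes likely. Among the 100 highest peaks called in WT over input, a longer cut of another list, 20 overlapped a KO peak.

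The 3 peaks called in KO, in WT and in WT over KO are those where signal was called in KO and yet was called higher in WT. The first, chr2:157385686-157386325 (score 78.4 in the KO list), held the start of Nnat, an imprinted gene for a small membrane protein of neurons, and overlapped H3K9me3 in both KO and WT. The second, chr13:25142234-25142706 (score 92.8), lay 5.17 kb upstream of Dcdc2a, a doublecortin-domain gene, and also overlapped H3K9me3 in both. The third, chr11:17108070-17108625 (score 57.5), lay 2.95 kb downstream of the start of Pno1, a ribosome assembly factor, and overlapped H3K9me3 in WT but not in KO. None of the 3 reached a score of 100 in the KO list. In the WT list the matching peaks had scores of 851.8 at Nnat, 632.0 near Dcdc2a and 809.1 near Pno1, in a list that reached 1794.1. The KO list reached 3100, and scores are not compared between the lists.

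Shared peaks mostly lay in H3K9me3, and KO-only peaks mostly did not. In the KO list of H3K9me3 regions, which covers 1.47% of the chromosomes, lay 207 KO-only peaks (11.4%, 9.99–12.9%), 54 shared peaks (70.1%, 59.2–79.2%) and 647 WT peaks without KO overlap (21.4%). In the WT list, which covers 1.75%, lay 145 KO-only peaks (7.96%, 6.81–9.30%), 48 shared peaks (62.3%, 51.2–72.3%) and 898 WT peaks without KO overlap (29.7%). KO-only peaks thus overlapped H3K9me3 less often than shared peaks. The difference was -58.8 percentage points for the KO list (Newcombe 95% interval -67.9 to -47.7) and -54.4 points for the WT list (-64.4 to -43.1). Against WT peaks without KO overlap the differences were -10.0 points for the KO list (-12.1 to -7.94) and -21.7 for the WT list (-23.8 to -19.7). All these intervals leave out 0.

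**Figure D2:**
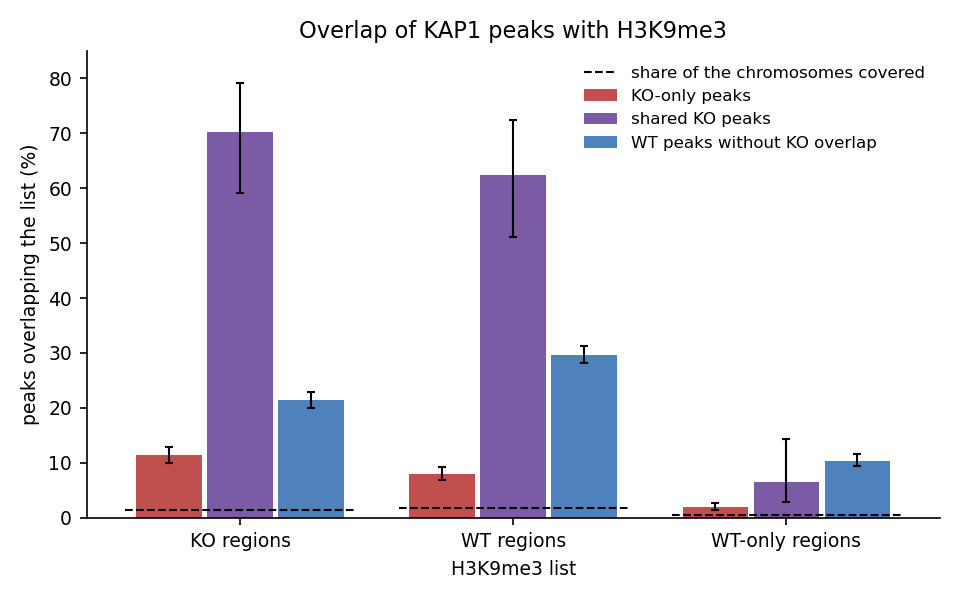
Share of KO-only peaks, shared KO peaks and WT peaks without KO overlap that overlap H3K9me3 regions of the KO, WT and WT-only lists (percent, bars from 0 with Wilson 95% intervals); dashed lines give the share of the chromosomes each list covers. Shared peaks stand highest for the KO and WT lists at 70.1% and 62.3%, and KO-only peaks lowest for all 3.

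The classes differed in whether the mark was listed in KO, in WT or in both. Among KO-only peaks, 106 overlapped H3K9me3 in both (5.82%), 101 in KO but not WT (5.55%), 39 in WT but not KO (2.14%) and 1575 in neither (86.5%). Among the 77 shared peaks the counts were 42, 12, 6 and 17 in the same order. WT peaks without KO overlap leaned the other way from the KO-only ones, with 135 in KO but not WT (4.47%) and 386 in WT but not KO (12.8%). Regions the authors list as found in WT only were met by 35 KO-only peaks (1.92%), 5 shared peaks (6.49%) and 315 WT peaks without KO overlap (10.4%), with a coverage of 0.579%. The difference between KO-only peaks and WT peaks without KO overlap was -8.50 points there (-9.76 to -7.22).

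Within the shared peaks, the high scores lay in H3K9me3. Of the 32 with a score of 100 or more, 30 overlapped the mark in KO, against 24 of the 45 below 100. The 16 peaks of the multi-peak loci all overlapped it in KO and in WT; of the 61 single peaks, 38 overlapped it in KO. KO-only peaks did not follow their score in 1 direction. In 4 equal bins by score, low to high, 15.6%, 6.81%, 5.71% and 17.4% overlapped H3K9me3 in KO, and 11.0%, 4.18%, 3.52% and 13.2% in WT. Wide peaks did so more: of the 26 KO-only peaks of 1 kb or wider 22 overlapped the mark in KO, and of the 16 such shared peaks 16 did. A wider peak has more bases with which to meet a region. The 202 KO regions met by KO-only peaks had a median width of 647.5 bp, against 587 bp for all KO regions, and 14.9% were 5 kb or more, against 2.06% of all. That share was 19.6% for regions met by shared peaks and 17.2% for those met by WT peaks without KO overlap; a longer region is also more likely to be met by any peak.

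Some KO-only peaks with the mark in both lists were prominent. The highest was chr7:136913327-136913995 (score 169.1), 177.9 kb from Wdr11. It was followed by chr11:3079431-3080721 (score 154.9), 12.7 kb from Sfi1, a centrin-binding gene, and by chrX:166435713-166447127 (score 149.4), the widest KO-only peak at 11415 bp, 18.9 kb from G530011O06Rik. Next came peaks nearest to Slc7a1, Crem and Stt3b, with scores of 131.0, 124.1 and 119.5. The peaks nearest to Sfi1 and to Crem (chr18:3116290-3118411) lie near the first mapped bases, as the chromosome 9 locus does. Whether reads of repeated sequence pile up at these peaks was not tested. With the mark in WT but not KO, the highest was chr11:5912369-5913026 (score 173.2), 53.3 kb from Camk2b, a calcium-dependent kinase. The peaks that followed, near Ppih, Cdh26, Nos1ap, Chrnb4 and Ppia, had scores of 97.7 to 113.7.

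Few KO peaks lay at gene starts in either class. A peak counted as at a start when it reached within 1 kb of one of 17778 starts, a window that covers 1.30% of the chromosomes. Of the KO-only peaks 60 did (3.30%, 2.57–4.22%), of the shared peaks 4 (5.19%, 2.04–12.6%) and of the WT peaks without KO overlap 76 (2.51%, 2.01–3.14%). The difference between KO-only and WT peaks was 0.781 points (-0.175 to 1.83), and between KO-only and shared peaks -1.90 points (-9.35 to 1.39); both intervals include 0. By their midpoints, which have no width, 2.53% of KO-only peaks (1.90–3.35%) lay in the window. For WT peaks without KO overlap the midpoint share was 2.05% (1.60–2.62%). Both were above the 1.30% of the chromosomes that the window covers. A start lay inside 16 KO-only peaks (0.879%), 2 shared peaks (2.60%) and 27 WT peaks without KO overlap (0.893%).

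**Figure D3:**
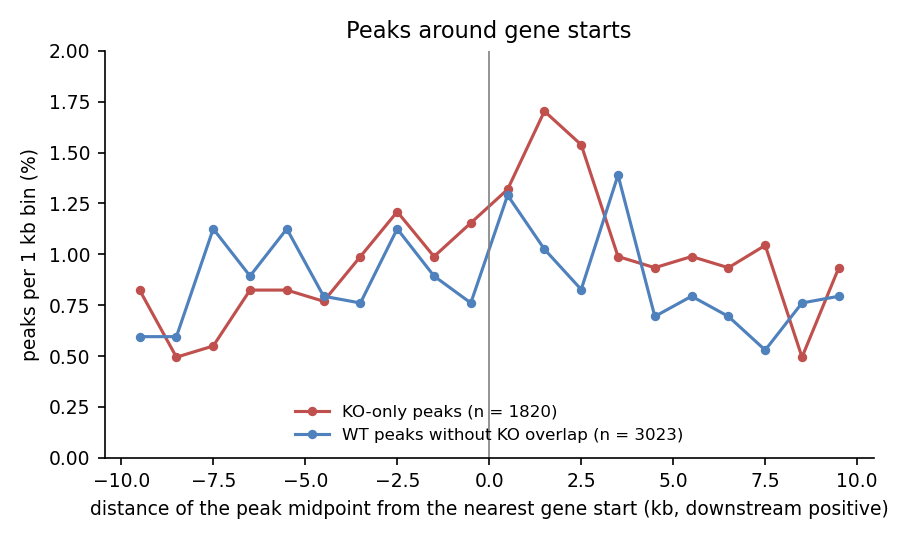
Share of peaks whose midpoint falls in each 1 kb bin around the nearest gene start (percent of peaks; kb, downstream positive), for KO-only peaks and WT peaks without KO overlap. Both lines stay under 2% in every bin.

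KO-only peaks lay inside genes more often than either other class. Their midpoints fell between the start and end of a gene in 46.0% (43.7–48.3%), those of shared peaks in 28.6% (19.7–39.5%) and those of WT peaks without KO overlap in 38.6% (36.9–40.4%), with genes covering 34.9% of the chromosomes. KO-only peaks exceeded WT peaks without KO overlap by 7.33 points (4.46–10.2) and shared peaks by 17.4 points (6.24–26.6). The median gap to the nearest start was 39586 bp for KO-only peaks, 58128 bp for shared peaks and 44031 bp for WT peaks without KO overlap.

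Across chromosomes, KO-only peaks had a median density of 0.740 per Mb over the 19 autosomes, lowest on chromosome 3 at 0.575 and highest on chromosome 11 at 1.14, which also has the most gene starts per Mb. WT peaks without KO overlap had a median of 1.22 per Mb and were densest on chromosome 1 at 1.72. The correlations given here are a description over 19 autosomes, which share 1 library per condition. Densities of KO-only peaks and of gene starts correlated at a Spearman coefficient of 0.40 and a Pearson r of 0.63. For WT peaks without KO overlap and gene starts the values were 0.09 and 0.15. Densities of KO-only peaks and of WT peaks without KO overlap correlated at 0.51 and 0.41. The KO-only density correlated with that of H3K9me3 regions in KO at a Spearman coefficient of -0.09. Chromosome X had 18 KO-only peaks, 0.110 per Mb, and 29 WT peaks without KO overlap, 0.177 per Mb.

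**Figure D4:**
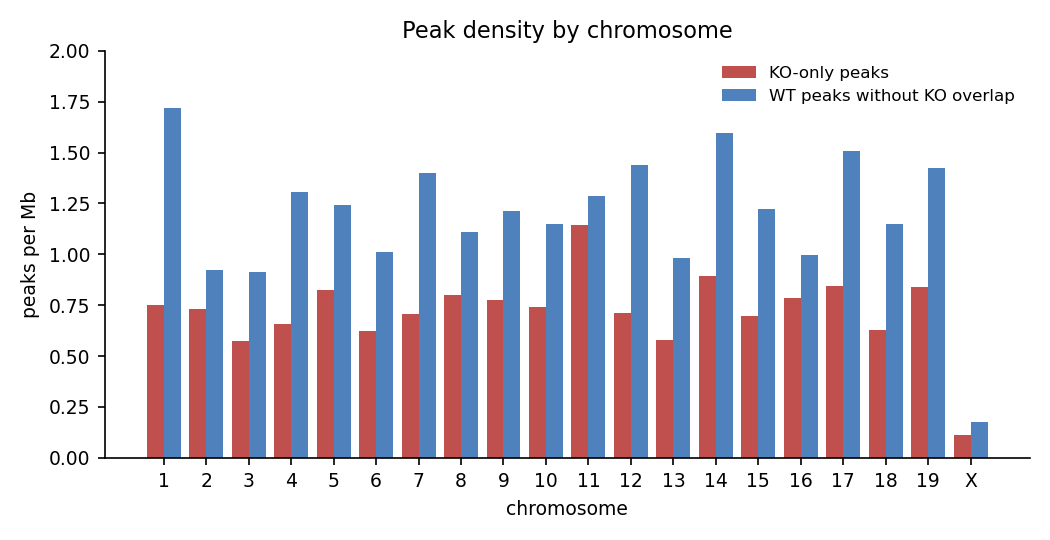
Peaks per Mb on each autosome and the X chromosome for KO-only peaks and WT peaks without KO overlap. Chromosome 11 is the densest for KO-only peaks at 1.14 per Mb, and both classes are sparse on the X.

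RNA of the genes at KO peaks was set beside that of all genes. KO and WT values are 1 library each, so no test was possible; a gene was measured at 1 RPKM or more in either library and called at 2-fold or more on log2(RPKM + 1). In ES3 cells 12.5% of the 12024 measured genes were called higher in KO and 3.18% lower. Starts of 73 genes lay within 1 kb of a KO peak, and 59 were measured: 5 were 2-fold higher (8.47%) and 1 was lower (1.69%). For the 69 genes at KO-only peaks, 55 were measured, 3 were higher and 0 lower, with a median log2 ratio of 0.18, against 0.08 for all measured genes. The median was -0.055 with a filter of 5 RPKM, and the 5 genes at KO peaks called higher became 16 with a pseudocount of 0.1 RPKM and 1 with 5 RPKM. On the scale used, the shares of 8.47% and 1.69% lie below those of all genes, but they rest on 5 genes and 1 gene. The shares of all genes with the other pseudocounts were not computed. Genes at WT peaks without KO overlap had 10 of 47 measured genes higher (21.3%) and 1 lower. In MEFs, where 0.981% of all measured genes were higher in KO and 4.84% lower, 0 of 45 measured genes at KO peaks were higher and 1 was lower.

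**Figure D5:**
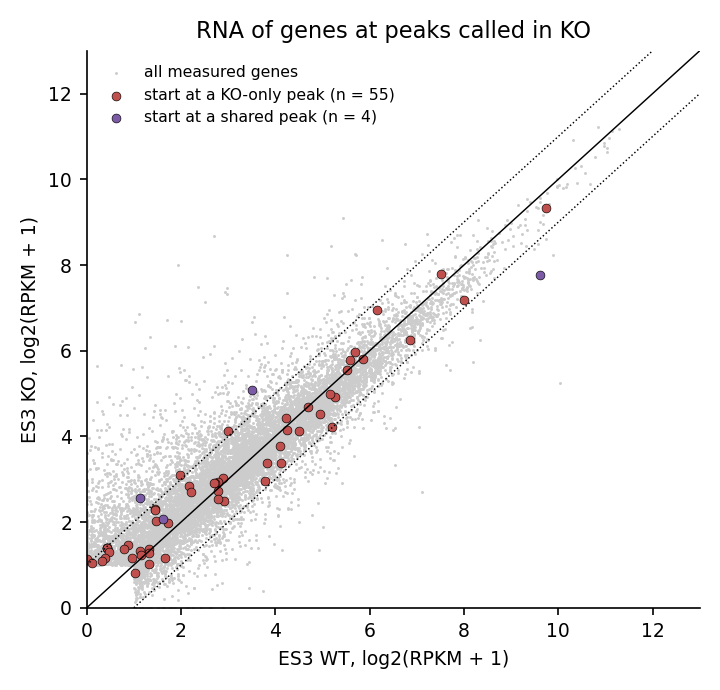
RNA level in ES3 KO (vertical) and ES3 WT cells (horizontal), both as log2(RPKM + 1), for all measured genes and those whose start lies at a KO-only peak (n = 55) or a shared peak (n = 4); dotted lines mark 2-fold. Of the 59 genes at KO peaks, 5 lie above the upper dotted line and 1 below the lower one.

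Of the 4 genes at shared peaks, all measured, 2 were 2-fold higher and 1 was 2-fold lower. Nnat had 33.1 RPKM in KO and 10.4 RPKM in WT ES3 cells, a log2 ratio of 1.58. Clcn4-2, a chloride/proton exchanger gene, had 4.90 RPKM in KO and 1.20 RPKM in WT, a log2 ratio of 1.42, with its peak at chr7:7253099-7253595. Phf21a, which encodes a reader of unmethylated H3K4, had 3.20 RPKM in KO and 2.08 RPKM in WT, a log2 ratio of 0.44. NR_030494 had 216.8 RPKM in KO and 779.3 RPKM in WT, a log2 ratio of -1.84, and in MEFs 197.8 RPKM in KO and 116.4 RPKM in WT. This transcript was the only one at a KO peak called lower in ES3 cells. What its reads come from was not tested, so its values are uncertain. The 4 peaks, of which those of Clcn4-2 and Phf21a do not reach the start itself, all overlapped H3K9me3 in KO, and 3 of them in WT as well.

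At KO-only peaks the genes past 2-fold were NR_033485, a RIKEN non-coding transcript with 1.20 RPKM in KO and 0 in WT, Fam65a and Khnyn. Fam65a had 16.4 RPKM in KO and 6.94 RPKM in WT, and Khnyn, a putative RNA-binding protein, 7.58 RPKM in KO and 2.94 RPKM in WT. NR_033485 was measured through its KO value alone. The lowest log2 ratios below 2-fold were -0.98 for Snora65, a small nucleolar RNA, -0.83 for Cxcr7, a chemokine receptor, -0.81 for Chchd10, a mitochondrial protein, and -0.74 for Crebzf, a leucine zipper factor. Chchd10 was abundant, with 144.5 RPKM in KO and 254.5 RPKM in WT. Ap2m1 had 221.7 RPKM in KO and 182.0 RPKM in WT, and Dusp1 61.4 RPKM in KO and 50.3 RPKM in WT. The U3 genes Rnu3b1, Rnu3b2 and Rnu3b3, listed at 1 start, had 1.65 RPKM in KO and 0.358 RPKM in WT each; they are near-identical copies, so their values are uncertain.

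In ES3 cells, genes whose body held a KO-only midpoint were called about as often as all genes. There were 785, of which 544 were measured; 68 were 2-fold higher in KO (12.5%) and 23 lower (4.23%), with a median log2 ratio of 0.17. The 1045 genes with the midpoint of a WT peak without KO overlap had 732 measured, with 103 higher (14.1%) and 26 lower (3.55%). In MEFs the genes with a KO-only midpoint were called lower more often than all genes: of 499 measured, 3 were higher (0.601%) and 44 lower (8.82%), beside 0.981% and 4.84% of all genes. Their median log2 ratio in MEFs was -0.21, against 0.004 for all genes. The genes with a midpoint of a WT peak without KO overlap were similar, with 50 of 637 measured genes lower (7.85%) and a median of -0.22. A longer gene is more likely to hold a midpoint, and gene length was not matched.

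Gene groups at KO peaks were small. Over all genes 0.41% have a start within 1 kb of a KO peak and 0.443% within 1 kb of a WT peak without KO overlap. Of 26 imprinted genes 2 had one at a KO peak: Nnat, and Zrsr1, a splicing factor paralogue, whose peak chr11:22873019-22873556 (score 63.3) was KO-only and lacked H3K9me3 in both lists. Zrsr1 had 20.7 RPKM in KO and 17.8 RPKM in WT. These 2 genes are 7.69% of the 26. At a WT peak without KO overlap, 6 of the 26 (23.1%) had a start, namely Peg3, Snrpn, Nespas, Meg3, Nap1l5 and Airn. Nnat, whose peak is shared with WT, is not counted among these 6. Of 326 Zfp genes 4 were at KO peaks (Zfp36l2, Zfp397, Zfp580 and Zfp790) and 0 at WT peaks without KO overlap. Of 91 ribosomal protein genes 1 was at a KO peak, Rpl12, and 3 were at WT peaks without KO overlap. Of 160 small RNA genes 5 symbols were at KO peaks and 3 at WT peaks without KO overlap. The 5 are Snora65, Rnu3b4, and Rnu3b1, Rnu3b2 and Rnu3b3, which share 1 listed start and 1 peak. None of 18 pluripotency, 12 housekeeping, 55 histone or 38 Hox genes had a start at a KO peak.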

How the data were processed

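KAP1 and H3K9me3 were measured by chromatin immunoprecipitation and sequencing in ES3 cells, and RNA by mRNA sequencing. Bowtie and the build mm9 are named, per the submitters' processing notes; no source used here gives versions, thresholds or read depth. The authors deposited KAP1 peaks with a score per peak, under names that MACS writes, and H3K9me3 regions as starts and ends. Each list is 1 call per condition. The authors deposited RPKM values, 1 row per RefSeq transcript, and a ratio of KO to WT RPKM that was not used.

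Overlap meant 1 bp or more. Shares have Wilson and differences Newcombe 95% intervals. Gene starts are those of the deposited ES table; the transcript with the highest mean RPKM stood for a symbol, and ratios are log2((KO + 1)/(WT + 1)). Promoters come from RefSeq, GRCm38.p6. The peaks named are the 10 highest by score in each class and the 6 highest with H3K9me3 in both lists or in WT alone. The genes named have the 8 largest or smallest ratios or belong to a gene list; others (Phf21a, Ap2m1 and Dusp1, and Trim28 as the target) were added for the promoters or to complete a group. Members and lists were chosen with earlier results of these data known. The overlap and interval code was tested on simulated data. Python 3.11.15, NumPy 2.4.6, pandas 2.3.3, SciPy 1.17.1 and matplotlib 3.10.9 were used. Input, H3K27ac and knockdown libraries were not analysed here.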

Additional observations from a re-analysis of the deposited data

How the results depend on the processing

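Of 96 values recomputed for the main comparisons, 61 kept within their interval and 35 moved beyond it. The RNA medians at KO-only and at all KO peaks changed sign with 1 filter. At shared peaks the interval of the RNA median is the whole range of 4 genes, so keeping within it shows little. That median changed sign too, from 0.93 to -0.13 with a filter of 5 RPKM or within 100 bp, and to -0.11 within 5 kb. The share of KO peaks overlapping a WT peak was 29.6% with KO scores of 100 or more, 23.1% with both lists at 100 or more, and 3.24% without the multi-peak loci. The share at a gene start was, for KO-only peaks, 1.10% within 100 bp, 12.2% within 5 kb, 32.0% within 20 kb and 2.53% by midpoint; for all KO peaks 1.16%, 12.1%, 31.6% and 2.53%; and for shared peaks 22.1% within 20 kb. With 50% of the peak required, the H3K9me3 share in the KO list was 9.55% for KO-only and 11.6% for all KO peaks, and in the WT list 6.64% and 8.54%. With regions within 1 kb counted, it was 13.7% and 16.1% in the KO list, 9.78% and 12.0% in the WT list, and 3.02% and 3.27% in the WT-only list. With scores of 100 or more it was 23.7% for KO-only, 93.8% for shared and 44.4% for all KO peaks in the KO list, 21.1%, 78.1% and 38.0% in the WT list, and 6.58%, 0% and 4.63% in the WT-only list; 50% overlap gave 1.53% of all KO peaks there. The median log2 ratio of genes at KO-only peaks was -0.055 with a filter of 5 RPKM (also -0.055 for all KO peaks) and 0.42 within 100 bp. Of 59 measured genes at KO peaks, 16 were 2-fold higher with a pseudocount of 0.1 RPKM and 1 with 5 RPKM, against 5. The shares of all genes at these pseudocounts were not computed. Within 5 kb 30 of 202 measured genes were higher, and within 20 kb 77 of 630, beside 12.5% of all measured genes. The cause of these moves was not tested, beyond the windows, overlaps and filters themselves. The midpoint and locus alternatives were chosen after seeing the data. No paired analysis was possible because each group is 1 library and no test was made. Depth limits every list, and it is unknown.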

Other observations

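The H3K9me3 lists themselves differ by chromosome. Chromosomes 6 and 14 hold 7097 regions in the KO list and 3436 in the WT list, while chromosome 1 holds 2285 and 3918. Of the 101 KO-only peaks with H3K9me3 in KO but not in WT, 7 were on chromosome 6 and 10 on chromosome 14. Of all 1821 KO-only peaks, 91 and 109 were on these chromosomes, and the KO list holds 37221 regions in all. The X chromosome had 8.10 H3K9me3 regions per Mb in KO and 9.72 in WT, against autosomal medians of 11.8 and 12.8, a smaller gap than that of the KAP1 peaks there.

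Chromosome Y, for which no gene start is listed in the ES table, held 1 KO-only and 1 shared peak. Among WT peaks with a score of 200 or more, 20 of 92 overlapped a KO peak.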
